A study of Homo sapiens with 18 samples.

Results

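The genes described here are 10 targets of the unfolded protein response, the programme by which cells enlarge the folding capacity of the endoplasmic reticulum (ER). HSPA5, XBP1, DNAJB9, HERPUD1, SDF2L1, HYOU1, DNAJC3, PDIA4, EDEM1 and CRELD2 were taken by gene symbol, and all 10 were found among the 58302 genes listed. Their RNA was set beside that of DDIT3, which encodes CHOP, the pro-apoptotic transcription factor at the end of the PERK branch of the same programme. RNA was sequenced from the lung cancer cell lines EBC-1 (MET amplification), PC-9 and HCC827 (both with an EGFR exon 19 deletion). Each line carried either a lentiviral shRNA against the tyrosine kinase SYK (shSYK, stable knockdown) or its negative control (nc). Each of these 6 groups has 3 libraries. The knockdown rests on 1 shRNA clone, and whether the libraries of a group came from separate cultures is not stated in the sources used here, so that every p-value measures the spread between these libraries.

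Unfolded proteins in the ER are sensed by IRE1, ATF6 and PERK, whose lumenal sides are bound by the chaperone BiP (HSPA5) in unstressed cells. IRE1 removes a short intron from XBP1 RNA, ATF6 is cut in the Golgi to release a transcription factor, and both routes raise transcription of chaperones, folding enzymes and the proteins that move misfolded clients out for degradation. PERK acts through phosphorylation of eIF2 alpha and translation of ATF4, with DDIT3 among the later targets. Levels are given as FPKM, fragments scaled to gene length and library size, which allows levels of different genes to be set side by side. A gene-level FPKM sums all isoforms, so the spliced and unspliced forms of XBP1 RNA were not separated here.

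Promoter sequences show what several of these genes share apart from their names. Windows from 250 bases before to 50 bases after the RefSeq start (GRCh38.p14) were searched on both strands for the ER stress response element (ERSE, CCAAT and CCACG separated by 9 bases), for ERSE-II (ATTGG and CCACG separated by 1 base) and for the box TGACGTGG. ERSE is known as a joint site of NF-Y, at CCAAT, and ATF6, at CCACG. All 10 genes had a window, and where RefSeq lists several starts (XBP1 and PDIA4) the start nearest to the 5′ end of the gene in the tables was used. An ERSE was present in 3 of them, HSPA5, XBP1 and CRELD2, and an ERSE-II was found in HERPUD1, SDF2L1 and HYOU1. ERSE occurred in 0.0769%, ERSE-II in 0.0541% and the box in 0.729% of the 35116 promoter windows of the table. The stretches around these elements are printed below 5′ to 3′ on the strand of the gene with 30 flanking bases, and capitals mark the matched elements with the bases between their parts.
HSPA5: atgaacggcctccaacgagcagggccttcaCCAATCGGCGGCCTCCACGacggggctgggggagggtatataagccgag
XBP1: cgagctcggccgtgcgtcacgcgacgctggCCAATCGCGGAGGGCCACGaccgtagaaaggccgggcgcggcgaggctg
CRELD2: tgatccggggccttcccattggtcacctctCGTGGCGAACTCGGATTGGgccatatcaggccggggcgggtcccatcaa
HERPUD1: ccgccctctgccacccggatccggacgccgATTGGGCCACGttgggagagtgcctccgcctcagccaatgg
SDF2L1: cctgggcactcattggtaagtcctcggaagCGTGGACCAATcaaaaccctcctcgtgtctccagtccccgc
HYOU1: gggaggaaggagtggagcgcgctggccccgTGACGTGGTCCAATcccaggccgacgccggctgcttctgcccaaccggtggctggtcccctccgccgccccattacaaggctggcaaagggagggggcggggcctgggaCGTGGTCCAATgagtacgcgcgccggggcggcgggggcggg
The HSPA5 stretch (chr9:125241361-125241439, minus strand) holds its ERSE at positions -66 to -48 from the start, and the XBP1 stretch (chr22:28800573-28800651, minus strand) at -52 to -34. In CRELD2 (chr22:49918524-49918602, plus strand) the ERSE lies on the opposite strand at -80 to -62. The ERSE-II of HERPUD1 (chr16:56931995-56932065, plus strand) lies at -117 to -107, and that of SDF2L1 (chr22:21642084-21642154, plus strand) on the opposite strand at -188 to -178. HYOU1 (chr11:119057244-119057423, minus strand) has an ERSE-II on the opposite strand at both -185 to -175 and -79 to -69, and the first of them overlaps a TGACGTGG box at -188 to -181. The windows of DNAJB9, DNAJC3, PDIA4, EDEM1 and DDIT3 held no exact match to these letters.

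SYK, the targeted gene, was lower in shSYK libraries of every line. Its mean FPKM in EBC-1 was 52.3% of nc, that in PC-9 was 32.1% and that in HCC827 was 32.9%, and the ranges of nc and shSYK libraries did not overlap in any line. Reads assigned to genes numbered between 7920099 and 15729103 per library. In all groups the 5 epithelial markers examined (EPCAM, KRT8, KRT18, KRT19 and CDH1) had a mean FPKM of at least 1. Of 11 markers of fibroblasts, endothelium and leukocytes, COL1A1 alone reached that level in EBC-1, with a summed level of 3.11 to 3.40 FPKM in nc and 2.39 to 2.84 FPKM in shSYK libraries. In PC-9 the sum was 20.8 to 25.6 FPKM in nc and 13.6 to 16.2 FPKM in shSYK libraries, from PECAM1, CDH5 and COL1A1. In HCC827 it lay between 1.74 and 2.67 FPKM. A mean of at least 1 was reached there by COL1A1 in both groups and by CD14 in nc. The part of these markers in the results below was not tested.

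In EBC-1, shSYK cells held far less RNA of the ER stress genes than nc cells. Of the 10 genes, 9 passed the test as lower and 0 as higher, with levels between 16.7% and 71.4% of nc over all 10 (median 28.6%). Genes were tested with limma on log2(FPKM + 1) and called at a Benjamini-Hochberg adjusted p under 0.05, and on this scale fold changes of low genes are understated. For comparison, 21.6% of the 12430 genes tested in EBC-1 were called lower and 23.1% higher, so that calls are common in this line. The median log2 fold change was -1.72 over the 10 genes and 0.0090 over all genes tested. The nc and shSYK libraries did not overlap for any of the 10, all of which were lower in shSYK, whereas 27.2% of all genes tested were lower without overlap.

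HSPA5, the principal Hsp70 chaperone of the ER, reached 1072, 1602 and 1004 FPKM in the 3 nc libraries and 198, 204 and 219 FPKM in the shSYK libraries. Every nc library was thus above every shSYK library, and the mean fell 5.92-fold. The log2 fold change of -2.53 ± 0.17 (SE, n = 3 libraries per group, limma adjusted p = 8.47e-05) placed HSPA5 at rank 12 from the lowest among all genes tested. By FPKM, HSPA5 ranked 9 to 25 among all genes in nc libraries and 125 to 149 in shSYK libraries. HYOU1, the Hsp110-type nucleotide exchange factor of BiP, had levels of 205, 262 and 215 FPKM in nc and 85.8, 81.6 and 80.6 FPKM in shSYK libraries, again without overlap. Its log2 fold change was -1.44 ± 0.097 (adjusted p = 9.73e-05), smaller in size than that of HSPA5.

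Of the J-domain co-chaperones of BiP, DNAJB9 passed the test and DNAJC3 did not, and the difference between these genes was not tested. DNAJB9 (ERdj4) was at 30.1, 39.7 and 25.0 FPKM in nc and at 8.27, 8.08 and 9.61 FPKM in shSYK libraries, a log2 fold change of -1.73 ± 0.16 (adjusted p = 0.000312). DNAJC3 (p58IPK) was at 10.9, 19.3 and 12.01 FPKM in nc and at 10.05, 9.37 and 10.7 FPKM in shSYK libraries. These groups are separated by a narrow gap, from 10.7 to 10.9 FPKM, and the spread of the nc libraries comes from replicate 2. DNAJC3 was the 1 gene of the 10 that did not pass, at -0.41 ± 0.19 (adjusted p = 0.109, 95% interval -0.84 to 0.023). SDF2L1, a partner of the J-domain protein DNAJB11, was at 207, 225 and 204 FPKM in nc and at 35.2, 39.8 and 36.2 FPKM in shSYK libraries. With little spread in either group, its log2 fold change of -2.49 ± 0.074 had the smallest adjusted p of the 10 genes (6.39e-06).

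Both thiol-disulfide enzymes fell. PDIA4 (ERp72), a protein disulfide isomerase, had 400, 511 and 399 FPKM in nc and 129, 122 and 129 FPKM in shSYK libraries, with a log2 fold change of -1.77 ± 0.10 (adjusted p = 6.71e-05). CRELD2, an ER protein with isomerase-like activity, had 27.2, 36.7 and 27.9 FPKM in nc and 8.70, 8.76 and 8.44 FPKM in shSYK libraries (log2 fold change -1.70 ± 0.11, adjusted p = 9.12e-05). The shSYK libraries lay close together for both genes, and the groups did not overlap.

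HERPUD1, a membrane protein that assembles the ER-associated degradation machinery, stood at 128, 149 and 107 FPKM in nc and at 20.02, 21.5 and 22.7 FPKM in shSYK libraries. Its level in shSYK cells was 16.7% of nc, the lowest share among the 10 genes, and its log2 fold change was -2.52 ± 0.12 (adjusted p = 3.51e-05). EDEM1, a lectin of the same pathway that directs misfolded glycoproteins to disposal, stood at 12.8, 17.1 and 11.5 FPKM in nc and at 9.25, 9.30 and 9.26 FPKM in shSYK libraries. It passed the test with the smallest change of those called, -0.51 ± 0.13 (adjusted p = 0.0163), and missed it with library rescaling to equal sums (adjusted p = 0.0537) or with no filter on low values (adjusted p = 0.0594). XBP1, the transcription factor gene of the IRE1 branch, gave 37.4, 37.8 and 38.2 FPKM in nc and 19.4, 20.6 and 18.7 FPKM in shSYK libraries. Both groups were tight and apart, with a log2 fold change of -0.92 ± 0.063 (adjusted p = 0.000106), which in size was below the log2 fold changes of 7 of the other genes.

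**Figure D1:**
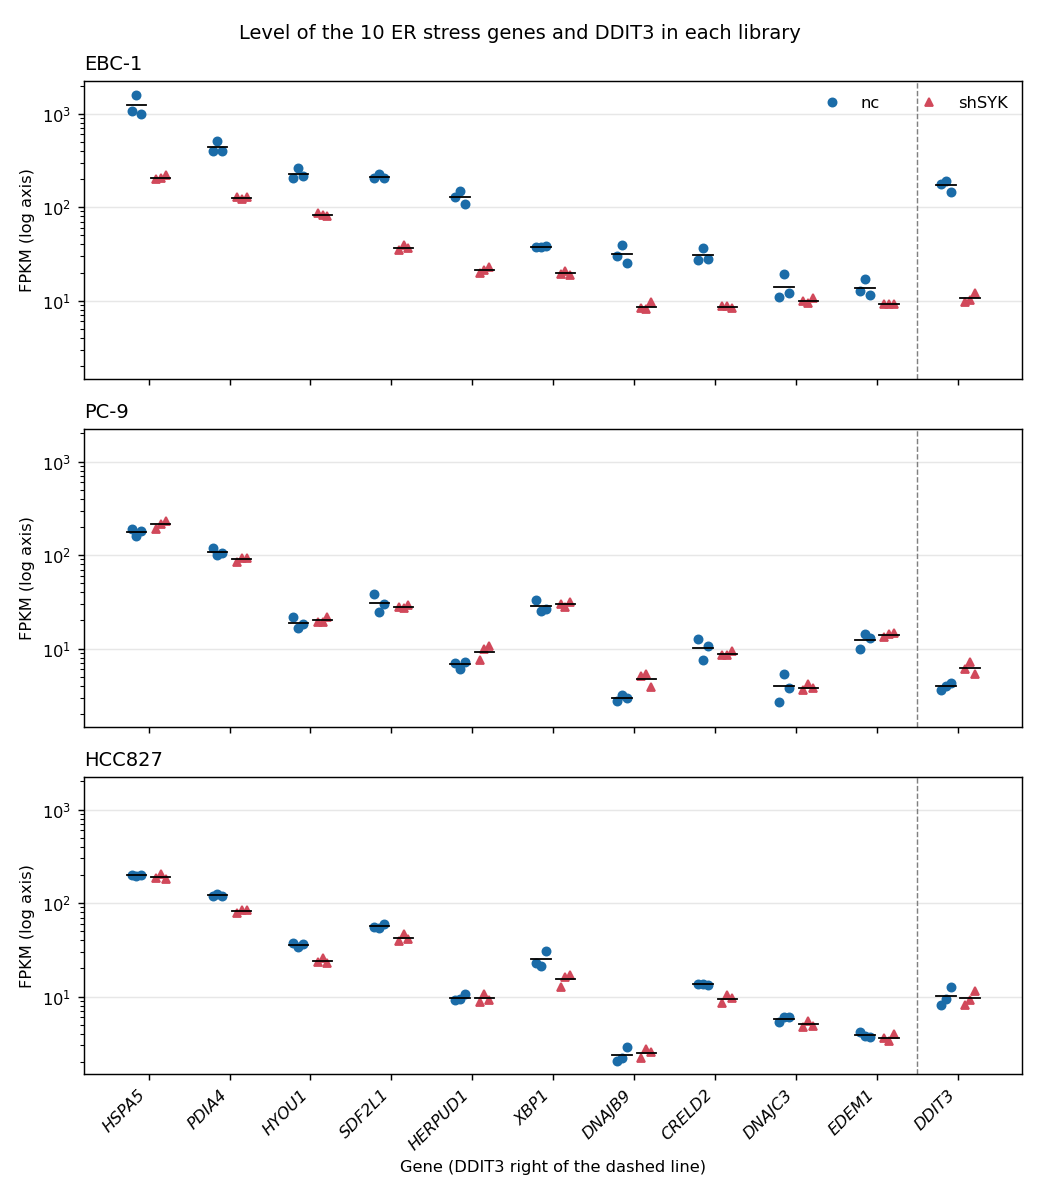
FPKM of the 10 ER stress genes and DDIT3 (right of the dashed line) in each library of EBC-1, PC-9 and HCC827, on a log axis. Circles are nc libraries, triangles are shSYK libraries and black bars are means of 3 libraries; in EBC-1 every shSYK library lies below every nc library for all 11 genes, with HSPA5 at 1004 to 1602 FPKM in nc and 198 to 219 FPKM in shSYK.

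In the EBC-1 nc group, replicate 2 stood apart from the other libraries over all genes. Its chi-square statistic on reads, divided by the degrees of freedom, was 10.6 against replicate 1 and 12.2 against replicate 3, beside 2.23 between those. Replicate 2 held the highest level of 9 of the 10 genes, the exception being XBP1, whose coefficient of variation in this group was 1.1% against a median of 16.9% over the 10 genes and 32.2% for DNAJC3. In EBC-1 shSYK libraries the median coefficient of variation was 5.07%. Over all genes, shSYK replicate 3 also stood apart, with a chi-square statistic of 9.28 against replicate 1 and 8.35 against replicate 2. Between those it was 2.11. The 10 genes took up 0.827%, 1.17% and 0.788% of all reads on genes in the nc libraries and 0.233%, 0.230% and 0.247% in the shSYK libraries. HSPA5 by itself accounted for 0.410%, 0.631% and 0.380% of the reads in nc libraries. With each library left out in turn, 9 of the genes stayed called lower, and the median log2 fold change ranged from -1.79 to -1.57, the smallest in size being the value without nc replicate 2. HSPA5 ranged from -2.66 to -2.32 in the same fits.

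PC-9 gave no call among these genes. By limma, 0 of the 10 passed at an adjusted p under 0.05 (2 at an unadjusted p under 0.05, and 0 by limma-voom on recovered reads), beside 1.41% of the 12089 genes tested called lower and 0.678% called higher. The share of all genes at an unadjusted p under 0.05 was not counted. The median log2 fold change was 0.084 over the 10 genes and 0.0088 over all genes tested. Library ranges were apart for 3 of the 10 with shSYK higher and for 1 with shSYK lower, while 11.4% of all genes tested were higher and 12.3% lower without overlap. DNAJB9 had 2.77, 3.21 and 2.94 FPKM in nc and 5.08, 5.36 and 3.92 FPKM in shSYK libraries. All shSYK values of DNAJB9 were above those of nc, with a log2 fold change of 0.53 ± 0.12 (adjusted p = 0.0817, 95% interval 0.25 to 0.82). HERPUD1 had 7.11, 5.99 and 7.28 FPKM in nc and 7.57, 9.83 and 10.55 FPKM in shSYK libraries, apart by little, at 0.40 ± 0.14 (adjusted p = 0.222). When the spread was estimated over all 18 libraries, DNAJB9 (adjusted p = 0.0226) and HERPUD1 (adjusted p = 0.0472) passed as higher. That fit called far more of all genes in PC-9, 660 higher and 851 lower. The PC-9 nc libraries differed widely over all genes. Their chi-square statistic per degree of freedom was 38.7 between replicates 1 and 2, 14.3 between 1 and 3 and 9.47 between 2 and 3. Without nc replicate 1, 621 of all genes were called in PC-9 in place of 253, and still 0 of the 10.

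HSPA5 in PC-9 was measured at 189, 162 and 180 FPKM in nc and at 191, 217 and 234 FPKM in shSYK libraries. The highest nc and the lowest shSYK library nearly met, and the log2 fold change of 0.27 ± 0.13 did not pass (adjusted p = 0.357, 95% interval -0.020 to 0.57). PDIA4 was the gene lower without overlap, with 118, 100.1 and 106 FPKM in nc and 85.0, 93.8 and 92.4 FPKM in shSYK libraries (log2 fold change -0.25 ± 0.11, adjusted p = 0.347). For XBP1, SDF2L1, HYOU1, DNAJC3, EDEM1 and CRELD2 the libraries overlapped, with log2 fold changes between -0.17 and 0.17. DNAJC3 and DNAJB9 rest on few reads in this line, from 65 to 347 reads in nc libraries.

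In HCC827, 5 of the 10 genes were called lower and 0 higher, beside 20.7% of the 11999 genes tested called lower and 17.2% called higher. The median log2 fold change was -0.29 over the 10 genes and -0.0053 over all genes tested, and the 5 called genes were also those with ranges apart, as were 27.6% of all genes tested in the lower direction. HYOU1 was at 37.0, 33.5 and 36.3 FPKM in nc and at 23.3, 25.7 and 23.1 FPKM in shSYK libraries. It fell to 67.6% of nc (log2 fold change -0.55 ± 0.065, adjusted p = 0.00103). PDIA4 was at 118, 125 and 120 FPKM in nc and at 77.85, 84.2 and 85.0 FPKM in shSYK libraries. It fell to 68.3% of nc (log2 fold change -0.55 ± 0.057, adjusted p = 0.000594).

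XBP1 in HCC827 stood at 22.8, 21.5 and 30.7 FPKM in nc and at 12.7, 16.3 and 17.2 FPKM in shSYK libraries. Its log2 fold change, -0.66 ± 0.15 (adjusted p = 0.0126), was the lowest of the 10 in this line, although nc replicate 3 stood above the other nc libraries. CRELD2 had 13.7, 13.5 and 13.2 FPKM in nc and 8.45, 10.3 and 9.63 FPKM in shSYK libraries (log2 fold change -0.47 ± 0.074, adjusted p = 0.00296). SDF2L1 had 55.6, 54.3 and 59.5 FPKM in nc and 39.0, 46.5 and 41.4 FPKM in shSYK libraries (log2 fold change -0.41 ± 0.075, adjusted p = 0.00516). Both genes had their groups apart. HSPA5 was at 201, 195 and 199 FPKM in nc and at 186, 202 and 182 FPKM in shSYK libraries, which overlapped, with a log2 fold change of -0.063 (adjusted p = 0.429, 95% interval -0.20 to 0.07). HERPUD1 (-0.028), DNAJB9 (0.057), EDEM1 (-0.073) and DNAJC3 (-0.16) also overlapped between the groups and were not called.

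**Figure D2:**
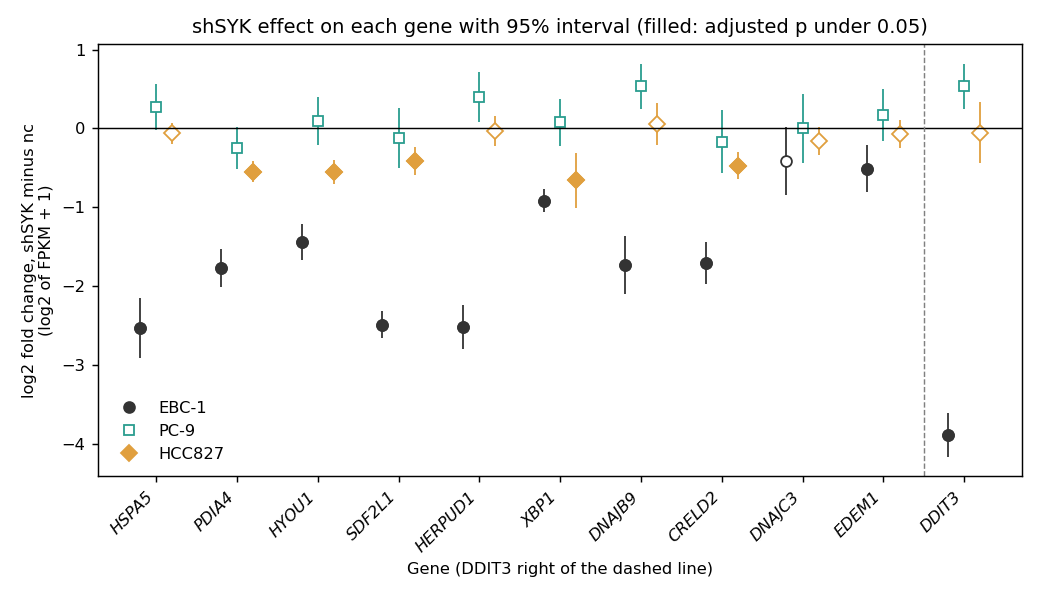
Log2 fold change (shSYK minus nc, log2 of FPKM + 1) of each gene in the 3 cell lines, with 95% intervals from limma; filled symbols have an adjusted p under 0.05. EBC-1 lies lowest for every gene, from -2.53 to -0.41 for the 10 genes and at -3.88 for DDIT3, while PC-9 has no filled symbol.

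The effect of shSYK itself was compared between the lines in a fit of all libraries with a term for each group. Between EBC-1 and PC-9 it differed for 9 of the 10 genes, all but DNAJC3, where 19.8% of the 12672 genes tested differed. The difference, EBC-1 minus PC-9, was largest for HERPUD1 (-2.91 ± 0.18, adjusted p = 3.93e-08) and HSPA5 (-2.80 ± 0.19, adjusted p = 1.29e-07). Between EBC-1 and HCC827 it differed for 7 of the 10, where 21.8% of all genes tested did. XBP1 was among the genes that did not pass there, with a difference of -0.26 ± 0.18 (adjusted p = 0.339, 95% interval -0.65 to 0.13), beside EDEM1 (-0.44, adjusted p = 0.0977) and DNAJC3 (-0.25, adjusted p = 0.525). PC-9 and HCC827 differed in XBP1 (0.73 ± 0.18, adjusted p = 0.0215) and HYOU1 (0.64 ± 0.15, adjusted p = 0.0129), which is 2 of the 10, beside 7.5% of all genes tested. The XBP1 call of this last pair was lost without any of 4 libraries in turn (PC-9 nc replicate 3, PC-9 shSYK replicate 3, HCC827 nc replicate 3 or HCC827 shSYK replicate 1), with adjusted p between 0.0518 and 0.0600.

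The order of the genes by level had a common top in all groups. HSPA5 was the most abundant of the 10 per length and PDIA4 the second in each of the 6 groups, with library ranges apart. Below them the order depended on the line. In EBC-1 nc cells HYOU1 (227 ± 30 FPKM, SD) and SDF2L1 (212 ± 12 FPKM) followed with overlapping ranges, whereas HYOU1 was at 19.0 ± 2.8 FPKM in PC-9 nc cells, below XBP1 (28.5 ± 4.3 FPKM). The lowest levels belonged to EDEM1 (13.8 ± 2.9 FPKM) and DNAJC3 (14.1 ± 4.5 FPKM), which overlapped, in EBC-1 nc cells and to DNAJB9 in PC-9 (2.98 ± 0.22 FPKM) and HCC827 (2.37 ± 0.44 FPKM) nc cells.

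Levels in EBC-1 nc cells were on average above those of both other lines for all 10 genes. The 3 lines come in separate tables, so these ratios of mean FPKM are a description without a test. HSPA5 in EBC-1 nc cells was 6.94 times its level in PC-9 nc cells and 6.18 times that in HCC827 nc cells. The ratio to PC-9 was 18.9 for HERPUD1, 12 for HYOU1 and 10.6 for DNAJB9, and it was near 1 for EDEM1 (1.11) and XBP1 (1.33). In shSYK cells the ratio of HSPA5 was 0.967 to PC-9 and 1.09 to HCC827, so that its mean FPKM was similar in the 3 lines, and CRELD2 was at 0.976 and 0.913. HYOU1 was at 4.10 times its PC-9 level and HERPUD1 2.30 times. FPKM summed over all genes was 247177 to 253541 in EBC-1, 306921 to 316917 in PC-9 and 324098 to 342264 in HCC827 shSYK libraries. The ratios are not adjusted for this difference in scale.

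In EBC-1, DDIT3 had a lower log2 fold change than any of the 10 genes. It was chosen for comparison because its fall in EBC-1 was already known from these data. Its rank and p-values involving EBC-1 are therefore a description and do not test that fall. It was at 179, 189 and 146 FPKM in nc and at 9.77, 10.1 and 12.1 FPKM in shSYK libraries. The mean dropped to 6.21% of nc, and the log2 fold change of -3.88 ± 0.12 (adjusted p = 6.39e-06) was the lowest of all 12430 genes tested. In PC-9 it was at 3.63, 3.94 and 4.24 FPKM in nc and at 6.04, 7.19 and 5.29 FPKM in shSYK libraries, higher without overlap but not called (0.53 ± 0.12, adjusted p = 0.0802). It passed there when the spread came from all 18 libraries (adjusted p = 0.0313), a fit that called 660 of all PC-9 genes higher and 851 lower. In HCC827 it was at 8.09, 9.35 and 12.8 FPKM in nc and at 8.14, 9.28 and 11.4 FPKM in shSYK libraries, which overlapped (adjusted p = 0.829). The effect of shSYK on DDIT3 differed between EBC-1 and PC-9 by -4.42 ± 0.22 (adjusted p = 2.70e-09) and between EBC-1 and HCC827 by -3.83 ± 0.22 (adjusted p = 1.90e-08).

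The log2 ratio of DDIT3 to HSPA5 was computed in each library with 1 added to both FPKM values. In EBC-1 it was -2.57, -3.08 and -2.78 in nc and -4.21, -4.21 and -4.07 in shSYK libraries. DDIT3 was thus lower relative to HSPA5 in every shSYK library, by -1.36 on average. The exact two-sided permutation test gave p = 0.1 (n = 3 per group), the smallest value that 3 against 3 libraries allow. Since DDIT3 was chosen for its fall in EBC-1, this difference is a description too. The same difference was 0.26 in PC-9 (exact permutation p = 0.3) and 0.011 in HCC827 (exact permutation p = 1).

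**Figure D3:**
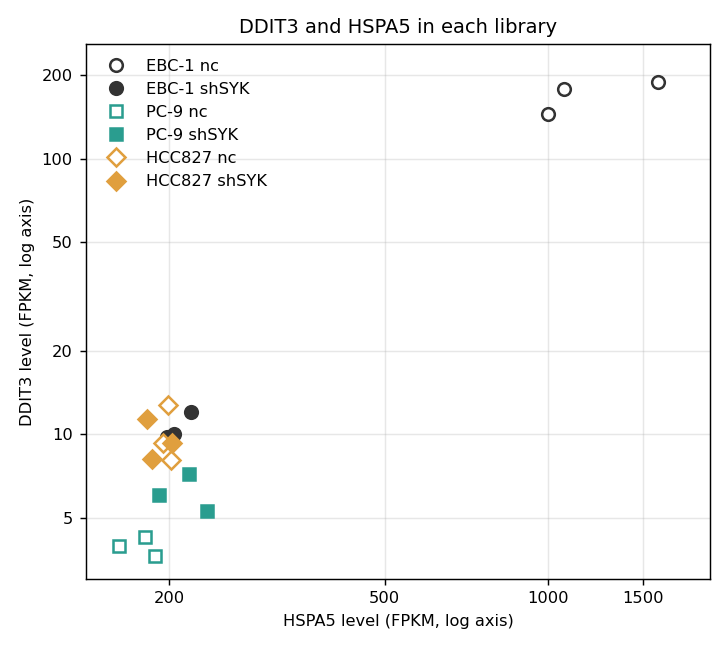
DDIT3 against HSPA5 in each of the 18 libraries, both in FPKM on log axes. Open symbols are nc and filled symbols shSYK libraries; the 3 EBC-1 nc libraries stand apart at 1004 to 1602 FPKM of HSPA5 and 146 to 189 FPKM of DDIT3, and the EBC-1 shSYK libraries lie near those of HCC827.

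The other genes of the pathway were counted in lists by role. These lists were chosen with earlier results of these data known, so their counts and medians are a description. Over all genes tested in EBC-1, 21.6% were called lower and 23.1% higher. In EBC-1, 11 of 11 tested genes of the PERK, ATF4 and CHOP arm were lower and 0 higher, DDIT3 included, with a median log2 fold change of -1.03. TRIB3, a pseudokinase induced by ATF4 and CHOP, was at -1.64 ± 0.078 (adjusted p = 3.51e-05) and PPP1R15A, which encodes the eIF2 alpha phosphatase subunit GADD34, at -1.34 ± 0.086 (adjusted p = 8.23e-05). ATF3, a stress-induced transcription factor, was at -0.96 (adjusted p = 0.00138) and CHAC1, a glutathione-degrading enzyme, at -0.74 (adjusted p = 0.0091). ATF4 RNA itself was at -0.28 ± 0.084 (adjusted p = 0.030).

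Chaperones and folding enzymes outside the 10 genes were called in both directions in EBC-1. Of 21 tested, 12 were lower and 3 higher, with a median of -0.35, beside 21.6% of all genes tested lower and 23.1% higher. MANF, a secreted ER stress factor, was at -1.72 ± 0.082 (adjusted p = 3.51e-05), the calcium-binding chaperone CALR at -1.11 ± 0.057 and the BiP co-chaperone DNAJB11 at -1.09 ± 0.10 (adjusted p = 0.000373). HSP90B1 (GRP94), the Hsp90 of the ER, was at -0.64 ± 0.22 and did not pass (adjusted p = 0.0506). Of 17 genes of ER-associated degradation, 8 were lower and 3 higher (median -0.25). The ubiquitin ligase gene SYVN1 was at -1.29 ± 0.11 (adjusted p = 0.000278) and its partner SEL1L at -0.61 ± 0.21 (adjusted p = 0.0483). DERL3, a derlin of the same machinery that was picked after its value was seen, was at -3.07 ± 0.19. The genes called higher were also named after their values were seen. In the chaperone list they were ERO1A (0.61), FKBP14 (0.40) and DNAJC1 (0.25), and in the degradation list EDEM3 (0.77), FAM8A1 (0.44) and ERLEC1 (0.29).

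Translocation and export genes divided evenly in EBC-1, with 5 of 17 higher, 5 lower and a median of 0.028. These counts are near the shares over all genes tested in EBC-1, 23.1% higher and 21.6% lower. Of 6 tested genes for the sensors and the proteases that process ATF6, 3 were lower and 1 higher, with ERN1, the gene of IRE1, at -0.48 ± 0.099 (adjusted p = 0.0073). EIF2AK3, the gene of PERK, was at -0.14 (adjusted p = 0.306) and ATF6 at 0.24 (adjusted p = 0.073), and neither was called. In PC-9, 0 genes of these 5 lists were called by limma, beside 1.41% of all genes tested called lower and 0.678% higher. At an unadjusted p under 0.05 there were 10 of 72, all of them with higher levels in shSYK and 5 of them in the PERK arm. The share of all PC-9 genes at that unadjusted level was not counted, so whether 10 of 72 exceeds it is not known. In HCC827 the PERK arm had 4 of 12 genes lower and 1 higher (median -0.042), the degradation list 9 of 16 lower and 2 higher (median -0.21), the chaperone list 5 of 21 lower and 4 higher, and the translocation list 3 of 17 in each direction. Over all genes tested in HCC827, 20.7% were lower and 17.2% higher, so the chaperone and translocation counts are near these shares. CALR (-0.53, adjusted p = 0.00159), SYVN1 (-0.44, adjusted p = 0.00267) and CHAC1 (-0.66, adjusted p = 0.037) were among those lower there, while TRIB3 (0.097), PPP1R15A (0.0021) and ATF3 (0.094) were not called.

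Genes whose pattern was most like that of HSPA5 were sought by Pearson correlation of log2(FPKM + 1), centred within each line, over the 18 libraries and among 5156 genes whose mean FPKM reached 5 in every line. HERPUD1 came first (r = 0.993), followed by MANF (0.986), the lipid phosphatase MTMR4 (0.983), the metal transporter SLC39A14 (0.981) and the calcium-binding protein SRI (0.978). DDIT3 held rank 7 (0.977), SDF2L1 rank 11, HYOU1 rank 23, CRELD2 rank 24, PDIA4 rank 26 and XBP1 rank 270, whereas DNAJB9, DNAJC3 and EDEM1 were not above the level needed. The correlation shares its libraries between all genes and is led by the EBC-1 groups. Without EBC-1 it was 0.945 for HERPUD1, 0.679 for MANF and 0.464 for DDIT3, but -0.019 for PDIA4 and 0.261 for SDF2L1. Since the RNA is from whole cultures, a lower level in every cell and a low level in part of the cells cannot be told apart.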

How the data were processed

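Libraries from TRIzol-extracted RNA were sequenced on an Illumina HiSeq by a service provider, Novogene. The deposited tables, 1 for each cell line, give 1 FPKM value per gene and library, which the authors derived from read numbers and a gene length column. The submitters' processing notes name CASAVA, HISAT2 and both the hg19 and hg38 builds, the paper states hg38, and gene coordinates of the tables match hg38. The counting program and annotation are not given in the sources used here. FPKM times gene length, divided by a unit fitted in each library, gave whole numbers of reads (largest distance from a whole number 3.26e-05), which served for depth. The FPKM denominator implied by that unit was 0.883 to 1.07 times the reads on genes. Counting error is larger for genes with few reads, and no pair of libraries of a group agreed within sampling noise.

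Groups follow the sample labels. In R 4.3.3, limma 3.58.1 was run on log2(FPKM + 1) within each line, with empirical Bayes moderation and a variance trend, over genes whose mean FPKM was 1 or more, and Benjamini-Hochberg adjusted p under 0.05 was called. Differences between lines were tested in 1 fit of all 18 libraries. The script was tested on simulated data. Promoters were searched and figures drawn in Python 3.11.15 with pandas 2.3.3, numpy 2.4.6 and matplotlib 3.10.9, and RefSeq promoter windows of GRCh38.p14 were matched by symbol. Named were the 10 genes, DDIT3, SYK, 14 genes chosen by role from the other lists and the 5 genes most like HSPA5. Further genes were named after their values were seen (DERL3, ERO1A, FKBP14, DNAJC1, EDEM3, FAM8A1, ERLEC1, FICD, NUCB1, RAD9A, PDIA6, ALG12, SYNPO, NAV2, PLS3, EIF2A and ZNF143). The members, the lists and DDIT3 were chosen with earlier results of these data known, DDIT3 for its fall in EBC-1. Alternatives were other pseudocounts, filters, scalings and variance estimates, a replicate block, limma-voom on recovered reads, removal of length and GC trends, and leaving out each library.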

Additional observations from a re-analysis of the deposited data

Results flagged for a closer look

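The effect of shSYK, as the log2 fold change against nc, differed between cell lines beyond the adjusted p of 0.05 in limma for the genes given here. For EBC-1 minus PC-9 the difference was -2.91 for HERPUD1, -2.80 for HSPA5, -2.37 for SDF2L1, -2.27 for DNAJB9, -1.53 for both HYOU1 and CRELD2, -1.52 for PDIA4, -0.99 for XBP1 and -0.68 for EDEM1. DDIT3, chosen for its known fall in EBC-1, stood beside them at -4.42. For EBC-1 minus HCC827 it was -2.49 for HERPUD1, -2.47 for HSPA5, -2.07 for SDF2L1, -1.79 for DNAJB9, -1.23 for CRELD2, -1.22 for PDIA4 and -0.89 for HYOU1, with DDIT3 at -3.83. For PC-9 minus HCC827 the difference was 0.73 for XBP1 and 0.64 for HYOU1. Both comparisons with EBC-1 share its 6 libraries. Single libraries far from their group could not be sought by a gap test, since groups held 3 libraries.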

How the results depend on the processing

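In EBC-1 the number of the 10 genes called lower was 8 to 10 (9 as reported), and the median log2 fold change stayed between -1.79 and -1.57, both of them with 1 library left out and the latter without nc replicate 2. With each library left out, PC-9 gave 0 calls and HCC827 gave 5. PC-9 gave 2 calls in the fit of all 18 libraries, which called 660 of all genes higher and 851 lower in that line. The number of genes whose effect differed between PC-9 and HCC827 ranged from 1 to 3 with a library left out. The cause of these shifts was not tested.

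Of the 14 called results for single genes, 220 of 224 recomputed values kept their direction and their call, and 0 turned direction. The exceptions were EDEM1 in EBC-1 (above), XBP1 in HCC827 with no filter (adjusted p = 0.0531) and SDF2L1 in HCC827 with length and GC trends removed (-0.25, adjusted p = 0.0873). DNAJC3 passed with those trends removed in EBC-1 (-0.72, adjusted p = 0.00735) and HCC827 (-0.29, adjusted p = 0.026). EDEM1 lost the difference of EBC-1 minus PC-9 with rescaling (-0.54, adjusted p = 0.0992) and limma-voom (-0.63, adjusted p = 0.0526). EDEM1 gained that of EBC-1 minus HCC827 without EBC-1 nc replicate 3 (adjusted p = 0.0454) or PC-9 nc replicate 1 (adjusted p = 0.0349), and SDF2L1 gained that of PC-9 minus HCC827 without PC-9 nc replicate 1 (adjusted p = 0.0216).

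Uncalled values changed sign in several settings. DNAJC3 in PC-9 was -0.029 with rescaling, -0.0071 with quantile normalization, -0.017 with limma-voom and -0.075 with trends removed, and -0.19 to 0.20 with libraries left out. SDF2L1 in PC-9 was 0.00086 with trends removed and -0.27 to 0.040 with libraries left out. In HCC827, HERPUD1 was 0.028 with rescaling, 0.015 with quantile normalization, 0.030 with limma-voom and -0.095 to 0.025 with libraries left out. DDIT3 in HCC827 was 0.0043 with rescaling and -0.18 to 0.12 with libraries left out. HSPA5 in HCC827 was 0.0043 with limma-voom. DNAJB9 in HCC827 was -0.058 with trends removed and -0.012 to 0.16 with libraries left out. DNAJC3 for PC-9 minus HCC827 was -0.034 to 0.36.

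Rescaling each library to an equal sum shifted the median of all genes in EBC-1 to 0.12 and the calls from 2876 higher and 2686 lower to 4029 and 1895, and those of HCC827 from 2066 and 2488 to 2483 and 1903. All genes called in PC-9 numbered 253, from 7 to 621 with a library left out and from 47 (no filter) to 1511 (fit of all libraries) in the other settings, and in EBC-1 5562, or 3579 at a mean FPKM of at least 5. Same-numbered nc and shSYK libraries did not deviate together in all pairs (correlations -0.22 to 0.33), and not every library correlated best with its own number. With the replicate block 9, 0 and 5 of the 10 genes were called in EBC-1, PC-9 and HCC827. Over all genes, that setting called 2241 higher and 2085 lower in EBC-1, 47 and 125 in PC-9, and 1860 and 2251 in HCC827. Few reads limit the precision of DNAJB9 in PC-9 and HCC827 (42 to 192 reads per library).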

Other observations

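An ERSE or ERSE-II was also searched for in genes outside the 10. Of 35116 RefSeq promoter windows, 46 held at least 1 of these elements, and they belonged to 44 genes, 6 of which are among the 10 described above. Of the other genes, 22 were tested in EBC-1, where 8 were lower and 3 higher in shSYK than in nc libraries, with a median log2 fold change of -0.30 against 0.0090 over all genes tested, of which 21.6% were lower and 23.1% higher. The lowest was FICD, the enzyme that AMPylates BiP, at -1.45 ± 0.098 (limma adjusted p = 9.73e-05), followed by CALR at -1.11 ± 0.057 (adjusted p = 4.12e-05) and NUCB1, a calcium-binding Golgi protein, at -0.92 ± 0.077 (adjusted p = 0.000234). RAD9A was next at -0.79 ± 0.10 (adjusted p = 0.00101), and PDIA6, a disulfide isomerase, was at -0.78 ± 0.088 (adjusted p = 0.000683). ALG12 (-0.72), SYNPO (-0.72) and NAV2 (-0.42) were also called lower. PLS3, an actin-bundling protein, was higher at 0.73 ± 0.11 (adjusted p = 0.00242), as were EIF2A and ZNF143. In PC-9, 0 of 21 were called in either direction by limma, with 3 at an unadjusted p under 0.05 (median 0.026). The share of all genes at that unadjusted level was not counted. In HCC827, 6 of 22 were lower and 3 higher (median 0.086), beside 20.7% and 17.2% of all genes tested. These genes were picked after their values were seen, and a match is a description of letters, not of binding.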
